A study of Mus musculus with 6 samples.

Results

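The genes described are the KDEL receptor family (Kdelr1, Kdelr2 and Kdelr3) with chaperones and regulators of endoplasmic reticulum (ER) stress (Hspa5, Hsp90b1, Pdia4, Pdia6, Xbp1, Atf4 and Ddit3). These are 10 of 18193 genes that the array annotation names through a probe set with a single symbol, and they hold 22 of its 45101 probe sets. The genes were brought together because Kdelr3 was higher in the cells given miR-290 mimics, so the Kdelr3 values are a description, without a test. The other 9 genes were chosen for their function, with earlier results of these data known.

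All samples came from 1 mouse embryonic stem cell line that is Dicer -/- (27H in the sample labels, 27H10 in the series title) and therefore lacks the enzyme that releases mature microRNAs. Controls and treated cells share this deletion. The cells were undifferentiated and were taken 24 h after transfection. In 3 samples they had received siRL, an siRNA against Renilla luciferase (control siRNA), and in 3 they had received Dharmacon mimics of the mmu-miR-290 cluster. Each sample was read on 1 Affymetrix array, and values are linear intensities in arbitrary units, 1 per probe set. Nothing in the labels says that replicates came from separate cultures, and a p-value here reflects no more than the variation among these samples, some or all of which may be technical.

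KDEL receptors are membrane proteins of the Golgi. They bind soluble ER proteins that have escaped from the ER through a short signal at the end of the protein, KDEL or a close variant, and return them in vesicles with a COPI coat. Much of the cargo consists of chaperones and disulphide isomerases that fold secreted proteins. When unfolded proteins accumulate in the ER, sensors in its membrane act through the transcription factors Xbp1, Atf6 and Atf4 to raise the transcription of these folding factors, and prolonged stress raises Ddit3, also known as CHOP.

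The mimics correspond to microRNAs encoded on chromosome 7. The labels do not list the single mimics. The sequences below, from RefSeq (GRCm38.p6, plus strand), are 4 of the 13 mature microRNAs of the cluster that were retrieved here. Among the 13 these are the ones with the seed AAGUGCU or AAGUGCC. The 13 hold miR-292a-5p but no miR-292a-3p, so the set may not be complete. Capitals mark bases 2 to 8, the seed that pairs with target transcripts. The first 3 have the same seed, and the fourth differs from them in its last base.
miR-291a-3p, chr7:3218968-3218989: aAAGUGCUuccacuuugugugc
miR-294-3p, chr7:3220691-3220712: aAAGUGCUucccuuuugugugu
miR-295-3p, chr7:3220815-3220837: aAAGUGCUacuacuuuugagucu
miR-290a-3p, chr7:3218674-3218697: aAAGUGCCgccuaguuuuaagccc

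The 6 arrays had median intensities of 41.7 to 44.9, with 28.5% to 30.2% of values under 16. All 10 markers of embryonic stem cells in the list used here were measured. Their summed intensity was 114742 to 124146 on the control arrays and 122925 to 129173 on the mimic arrays. In the main test 0 of the 10 passed, beside 0.456% higher and 1.38% lower over all tested genes. With the level-dependent robust prior described below, Esrrb (0.23) and Utf1 (0.21, log2 scale) were called higher (limma adjusted p = 0.0158 and 0.0317). That prior called 6.2% higher and 9.43% lower over all tested genes. The main test shares also stand beside the counts of the marker lists that follow. The summed intensity of 12 markers of primitive and parietal endoderm, cells rich in ER, was 12068 to 12592 and 11664 to 12609. Of these 12, 0 passed, and Sparc alone gave most of the sum. The defining factors Gata6, Gata4 and Sox17 did not exceed 65.8 on any array. Dim members had the largest log2 differences: Gata6 (1.57) and Afp (0.66), with overlapping groups, and Sox7 (0.63), with all mimic values higher. Foxa2 (-0.51), Pdgfra (-0.27) and Sparc (-0.04) were lower with the mimics. Fibroblast markers summed to 1299 to 1445 with the control siRNA and 1051 to 1263 with the mimics. In that list 1 of 6 tested members fell (Tagln, from a mean of 540 to 260), while Col1a1, Col1a2, Col3a1 and Postn were at no more than 32.2. Tagln and Fbln1 gave most of the sum. On the log2 scale Fbln1 (0.26) and Thy1 (0.10) were higher with the mimics. Dcn (-0.90), Lum (-1.22) and Twist1 (-0.14) were lower, and of these members without a call only Dcn had separate groups. Trophectoderm markers summed to 4917 to 5465 and 4172 to 4479, with Cdx2 and Elf5 at no more than 27.7. Of 6 tested members 1 fell (Krt18, from a mean of 2070 to 1362). Krt18 and Tfap2c (-0.09, overlapping groups) gave most of the sum. Gata3 (-0.31), Krt7 (-0.29), Hand1 (-0.21) and Eomes (0.01) also had overlapping groups. The part of these endoderm, fibroblast and trophectoderm markers in the values below was not tested. In bulk samples, fewer cells of a type and less RNA per cell cannot be told apart.

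Kdelr3 had the largest difference of the 10 genes, as its choice implies. It encodes a KDEL receptor whose transcript is known to be raised by ER stress. Its intensity was 64.7, 60.7 and 55.7 on the control arrays and 146, 171 and 133 on the mimic arrays. The mimic arrays were higher in every case, and the groups did not overlap. The means were 60.4 ± 4.48 and 149.8 ± 19.6 (n = 3 each, SD), a 2.47-fold difference (1.31 ± 0.125 SE on the log2 scale, mimics minus control). The gene has 1 probe set, so no second one could be compared. That probe set was dim: its control values were little above the array medians of 41.7 to 44.9, and no detection call was available. With an offset of 16 added to every intensity, which damps changes of dim probe sets, the log2 difference was 1.11.

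Kdelr1 and Kdelr2 did not pass the test. Kdelr1, a widely expressed receptor of the family, gave 1048, 1222 and 1137 on the control arrays and 963, 1038 and 1095 on the mimic arrays. These groups overlapped, and the log2 fold change was -0.14 (95% interval -0.38 to 0.11, limma adjusted p = 0.482). Kdelr2, the other widely expressed receptor, gave 6373, 6922 and 6771 on its brighter probe set in the controls and 6004, 6354 and 5759 with the mimics. All 3 mimic values lay below the lowest control value, and the nearest pair, 6354 and 6373, almost met. The log2 fold change was -0.15 (95% interval -0.35 to 0.05, limma adjusted p = 0.368). A dimmer Kdelr2 probe set, with 929, 959 and 915 against 911, 1038 and 976, gave 0.06 and overlapped.

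**Figure D1:**
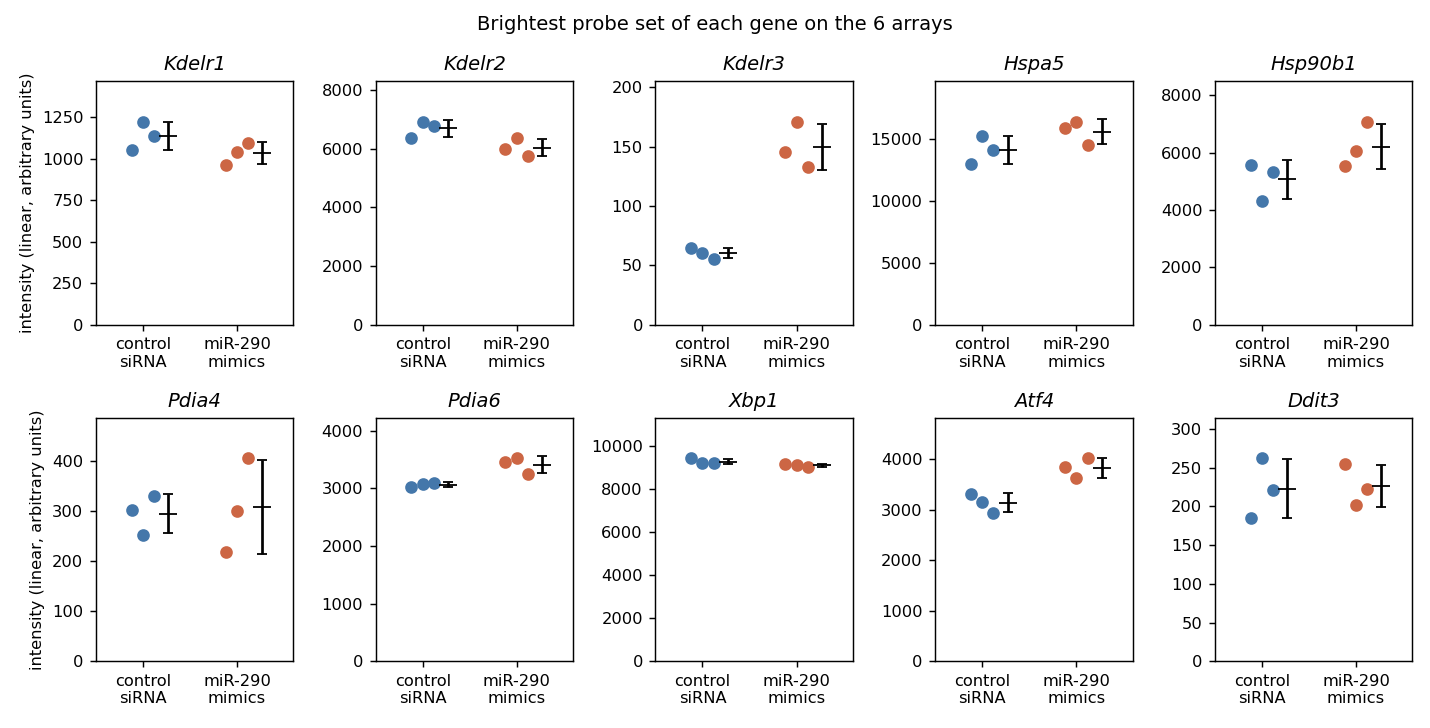
Linear intensity (vertical axes from 0, a different scale in each panel) of the brightest probe set of each of the 10 genes, with points for the 3 control siRNA and 3 miR-290 mimic arrays and bars for the mean ± SD. The Kdelr3 points separate widely, at 55.7 to 64.7 against 133 to 171, while the other panels show close or overlapping groups.

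Of the 9 genes other than Kdelr3, 0 passed the test (limma, Benjamini-Hochberg adjusted p under 0.05 over all 29167 tested probe sets), with 1, Atf4, at an unadjusted p under 0.05. When limma's prior variance was fitted as a trend over intensity, with outlying variances down-weighted (the level-dependent robust prior), 1 was called, again Atf4. With that prior 5 of the 9 had an unadjusted p under 0.05 in limma, beside 7182 of all 29167 tested probe sets. Over all 13815 tested genes, 1.83% passed the main test and 24.5% had an unadjusted p under 0.05 in the main limma test. The level-dependent robust prior called 15.6% of them. The log2 fold changes of the 9 genes ran from -0.15 to 0.30, with a median of 0.03, beside a median of -0.01 over all tested genes. The 3 mimic values lay beyond the 3 control values for 4 of the 9, with 2 higher (Pdia6 and Atf4) and 2 lower (Kdelr2 and Xbp1). Over all tested genes this share was 35.5%, with 16.2% higher and 19.3% lower.

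The abundant folding factors of the ER lumen are cargo that KDEL receptors retrieve. Of the 4 measured here, 0 passed the main limma test, with 0 at an unadjusted p under 0.05 in that test on their brightest probe sets. Hspa5, also known as BiP, is the ER Hsp70 chaperone and a standard readout of ER stress. Its brightest probe set gave 12994, 15274 and 14151 on the control arrays and 15911, 16434 and 14509 on the mimic arrays. The groups overlapped, and the log2 fold change was 0.14 (95% interval -0.10 to 0.39, limma adjusted p = 0.467). Its 2 dimmer probe sets gave 0.05 and -0.05.

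Hsp90b1, also known as GRP94, is the ER form of Hsp90. Its intensities were 5582, 4303 and 5310.3 against 5515, 6037 and 7076, with overlap between the groups and the highest value on a mimic array. The log2 fold change of 0.30 did not pass (95% interval -0.08 to 0.67, limma adjusted p = 0.347). A second Hsp90b1 probe set gave 2225, 1912 and 1891 against 2288, 2438 and 2631. Here the groups did not overlap, and the log2 fold change was 0.29 (limma adjusted p = 0.215, and 0.0343 with the level-dependent robust prior). The sizes on the 2 probe sets were almost equal, and they differed in their spread.

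Pdia4 and Pdia6 are disulphide isomerases, enzymes that form and rearrange the disulphide bonds of proteins in the ER. Pdia4 was the most variable of the 10 genes, with 302, 253 and 330.1 on the control arrays and 218, 299.8 and 406 on the mimic arrays. The mimic values spanned the whole control range, and the log2 fold change was 0.02 with a wide interval (95% interval -0.61 to 0.66, limma adjusted p = 0.967). A 1.5-fold difference in either direction lies within that interval, so these arrays do not settle whether Pdia4 differed. Pdia6 was far steadier, at 3017, 3082 and 3091 against 3459, 3519 and 3240.3. All mimic values were higher, and the log2 fold change was 0.15 (95% interval -0.03 to 0.33, limma adjusted p = 0.314). A dim second Pdia6 probe set gave 0.32 and overlapped, and a second Pdia4 probe set, at no more than 25.1, was below the filter on low values.

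Among the transcription factors of the stress response, Atf4 alone had groups that were separate on all of its tested probe sets. Xbp1 encodes the factor whose messenger RNA is spliced by the sensor Ire1, and the probe sets used here are not known to separate its spliced and unspliced forms. Its brightest probe set gave 9431, 9199 and 9217 on the control arrays and 9169, 9143 and 9029 on the mimic arrays. The groups were separate but nearly touched. The log2 fold change was -0.03 with the narrowest interval of the 9 genes (95% interval -0.19 to 0.14, limma adjusted p = 0.852). The other 3 Xbp1 probe sets gave 0.09, -0.11 and -0.30, with limma adjusted p-values between 0.356 and 0.588.

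Atf4 encodes the factor whose translation increases when the kinase Perk or a related kinase phosphorylates eIF2-alpha. Its brightest probe set gave 3309, 3159 and 2939.8 on the control arrays against 3841, 3624 and 4016 on the mimic arrays. All mimic values were higher than all control values, and the log2 fold change was 0.29 ± 0.0848 SE (limma adjusted p = 0.154). The level-dependent robust prior gave an adjusted p of 0.0121 in limma, and over all alternatives the adjusted p lay between 0.0121 and 0.38. A second Atf4 probe set, of a type that can also bind related sequences, gave 1311, 1005 and 1299 against 1558, 1491 and 1839. It did not overlap either, with a log2 fold change of 0.44 (limma adjusted p = 0.194, and 0.0255 with the level-dependent robust prior). The third Atf4 probe set stayed under 5.1 on every array and was not tested.

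Ddit3, a target of Atf4 that promotes cell death in prolonged stress, gave 186, 262 and 221 on the control arrays and 254, 201 and 223 on the mimic arrays. The groups overlapped throughout, and the log2 fold change was 0.03 (95% interval -0.39 to 0.44, limma adjusted p = 0.943). A second Ddit3 probe set, at no more than 36.0, was below the filter.

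**Figure D2:**
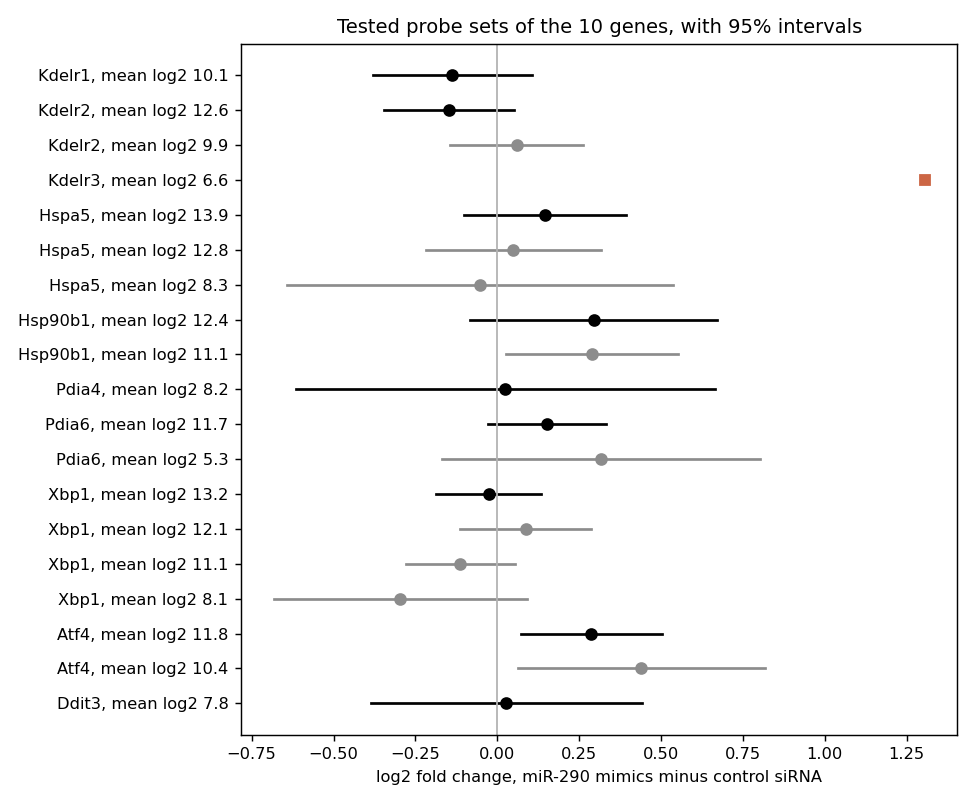
Log2 fold change (horizontal axis, miR-290 mimics minus control siRNA) of the 19 tested probe sets of the 10 genes, each labelled with its mean log2 intensity, with lines for limma's 95% interval. Black marks the brightest probe set of a gene and grey the others; Kdelr3 (square, 1.31) is drawn without an interval because it was chosen for this difference, and the only intervals that do not reach 0 are those of both Atf4 probe sets and the dimmer Hsp90b1 one.

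Promoters of 9 of the 10 genes (all but Kdelr2) were matched by symbol in RefSeq (GRCm38.p6), as windows of 300 bases that begin 250 bases before the gene start. They were searched on both strands for sequences known from this stress response, with no overlap between the matches. The ER stress response element (ERSE), CCAAT and CCACG with 9 unspecified bases between them, which the factors NF-Y and Atf6 bind, was in 3 of the 9 windows, those of Hspa5, Hsp90b1 and Pdia6, and in 0.119% of all 32851 windows. TGACGTGG, the core of the unfolded protein response element (UPRE) that Atf6 and Xbp1 bind, was in the Kdelr3 window alone among the 9 and in 0.676% of all windows. The second ERSE form, ATTGG and CCACG with 1 base between them (0.0365% of windows), and the core of the composite element for Atf4 and C/EBP factors, TGATGNAAT (0.965% of windows), were in 0 of the 9. Because the motifs were chosen as known from this stress response, their share among its genes is a description and was not tested. Kdelr3 held the UPRE core and no ERSE, while Hspa5, Hsp90b1 and Pdia6 held the ERSE and no UPRE core. The matches are printed to show these letters. Capitals mark the motif, each line reads along the strand that holds it, and a match is a description of letters and not a bound site.
Kdelr3, UPRE core, chr15:79516366-79516397, minus strand: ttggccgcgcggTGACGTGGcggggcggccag
Hspa5, ERSE, chr2:34772013-34772055, plus strand: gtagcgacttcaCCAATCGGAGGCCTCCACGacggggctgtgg
Hsp90b1, ERSE, chr10:86705626-86705668, minus strand: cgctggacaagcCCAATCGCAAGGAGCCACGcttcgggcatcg
Hsp90b1, second ERSE, chr10:86705521-86705563, plus strand: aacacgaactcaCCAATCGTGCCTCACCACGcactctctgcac
Pdia6, ERSE, chr12:17266479-17266521, plus strand: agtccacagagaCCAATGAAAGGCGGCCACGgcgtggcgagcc

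Genes outside the 10 whose promoter windows hold the same letters were counted next, beside 0.456% higher and 1.38% lower over all tested genes. Of 21 tested genes with either form of the ERSE, 0 passed the test, and their median log2 fold change was 0.07. In limma 7 of these 21 had an unadjusted p under 0.05, beside 24.5% of all tested genes. Such a p-value was found for 28 of 118 tested genes with the UPRE core and 17 of 65 with the core for Atf4 and C/EBP factors. Of 118 tested genes with the UPRE core, 0 rose and 2 fell, the transcription factor genes Zfp367 (-1.72) and Sox1 (-0.95), and the median was -0.03. Of 65 with the core for Atf4 and C/EBP factors, 0 rose and 1 fell, Tbc1d9 (-1.35), with a median of 0.03. These 3 genes are named because they passed, after their values were seen. Sox1 did not pass with the level-dependent robust prior (limma adjusted p = 0.0569). Dim further probe sets of Tbc1d9 and Zfp367 overlapped between the groups, at log2 fold changes of -0.20 and -0.34. With the level-dependent robust prior in limma the counts were 2 higher and 3 lower for either form of the ERSE, 4 and 10 for the UPRE core and 6 and 6 for the core for Atf4 and C/EBP factors, beside 6.2% higher and 9.43% lower over all tested genes. The median over all tested genes was -0.01.

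The rest of the secretory and stress machinery was examined through 8 lists chosen by function, with earlier results of these data known. They hold 212 genes outside the 10, of which 203 were tested. Of these, 0 rose and 1, Dnajc1, fell. Over all tested genes 0.456% were called higher and 1.38% lower. The median log2 fold change of the 203 was -0.02. In limma 45 of the 203 had an unadjusted p under 0.05, beside 24.5% of all tested genes. Dnajc1, a membrane-bound partner of Hspa5 with a J domain, gave 441, 425 and 477 on the control arrays and 287, 279.5 and 289 on the mimic arrays. The groups were far apart, with a log2 fold change of -0.65 ± 0.0771 SE (limma adjusted p = 0.0431). A dimmer Dnajc1 probe set gave -0.60 with the same order of the groups but did not pass (limma adjusted p = 0.185), while 2 others at under 100 on average gave -0.25 and 1.25. The count of 1 became 0 with median centring of the arrays and with no filter on low values. It also became 0 with any single array left out under limma's constant prior, where at most 1 of all tested probe sets was called. With the level-dependent robust prior in limma the count became 31, 13 higher and 18 lower. Dnajc1 was called in every fit with that prior that left out 1 array. With all probe sets of a gene averaged, Dnajc1 did not pass and the calls were Gpt2 and Ube2j1, both lower.

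In the list of ER chaperones, 1 of 25 fell (Dnajc1) and 0 rose, with a median of 0.04. In limma 9 of the 25 had an unadjusted p under 0.05, beside 24.5% of all tested genes. With the level-dependent robust prior 3 were called higher and 4 lower, beside 6.2% and 9.43% of all tested genes. The brightest other members of this list were Calr, a calcium-binding lectin chaperone of the lumen, and Canx, its relative in the membrane. Calr was at 10648 ± 728 and 10346 ± 908 (n = 3 each, SD; log2 difference -0.04, limma adjusted p = 0.85). Canx was at 8219 ± 302 and 9644 ± 349 (log2 difference 0.23, limma adjusted p = 0.174), with all mimic values higher. Of 18 disulphide isomerases and ER oxidases 0 passed, with a median of 0.01. In limma 4 of the 18 had an unadjusted p under 0.05, beside 24.5% of all tested genes. P4hb, the classical disulphide isomerase, gave 0.02, and Prdx4, an ER peroxiredoxin, gave 0.09.

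Among 16 stress sensors with their proteases and factors, 0 passed the limma test and 3 had an unadjusted p under 0.05, with a median of -0.06. The brightest were Rtcb, the ligase that rejoins the Xbp1 messenger RNA after Ire1 has cut it, at 0.04, and Tmbim6, a membrane protein that restrains Ire1, at 0.07. Of 30 genes known as targets of Atf4 or Ddit3, 0 passed and 8 had an unadjusted p under 0.05 in limma, with a median of 0.03. The share with such a p-value over all tested genes was 24.5%. Asns, which makes asparagine and is a standard Atf4 target, was at 4946 ± 362 and 5477 ± 315 (n = 3 each, SD; log2 difference 0.15, limma adjusted p = 0.434). Bcl2l11, which encodes the death-promoting protein Bim, was at 5284 ± 257 and 4423 ± 156 (-0.26, limma adjusted p = 0.158), and its 4 dimmer probe sets gave 0.07, -0.39, -0.01 and -0.29.

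The transport lists, which include the vesicle coat that KDEL receptors ride, also gave 0 calls in limma. Of 34 genes of the COPI coat and of retrieval from the Golgi, 4 had an unadjusted p under 0.05 in limma and the median was -0.06. Over all tested genes 24.5% had such a p-value. Arf1, the GTPase that recruits the coat, was at 15967 ± 1014 and 16298 ± 134 (n = 3 each, SD; log2 difference 0.03, limma adjusted p = 0.855), and Tmed9, a cargo receptor of these vesicles, gave 0.11. For 26 genes of the COPII coat and ER exit the median was -0.02 with 3 at an unadjusted p under 0.05 in limma. Its brightest members were the GTPase Sar1b (-0.06) and the coat subunit Sec13 (0.12). For 30 genes of the translocon, signal recognition and signal peptidase the median was 0.07 with 10 at an unadjusted p under 0.05 in limma. There Srp14 gave 0.04 and the channel subunit Sec61b 0.25. For 27 genes that remove misfolded proteins from the ER the median was -0.08 with 5 at an unadjusted p under 0.05 in limma, and the brightest, Vcp and Selenok, gave -0.03 and -0.08.

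**Figure D3:**
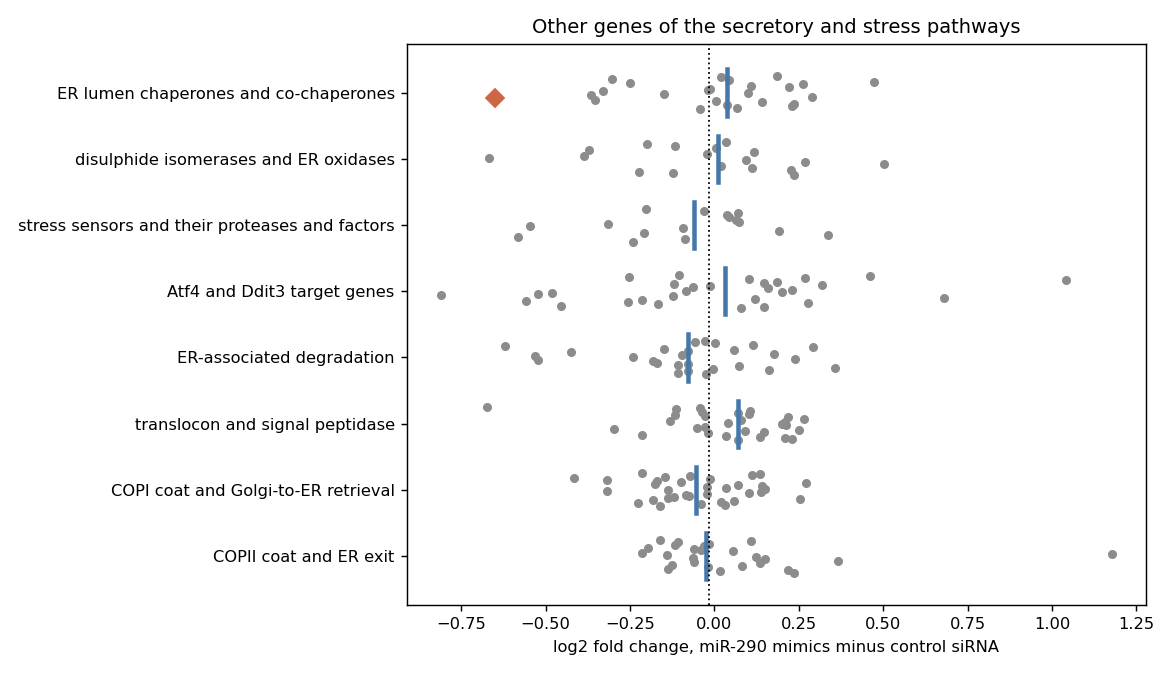
Log2 fold change (horizontal axis, miR-290 mimics minus control siRNA) of the tested genes of 8 lists outside the 10 genes, 1 point a gene by its brightest probe set, with a blue bar for each list's median and a dotted line for the median of all tested genes (-0.01). The list medians lie between -0.08 and 0.07, and the diamond marks Dnajc1 (-0.65), the 1 gene that passed the test.

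By Pearson correlation of log2 intensities over the 6 arrays, the 5 genes closest to Kdelr3 in pattern were Khdc3, 3110082I17Rik, Rpf2, Mrpl24 and Dhodh, all with r of 0.997 or 0.998. The 6 points share 1 difference between 2 groups, and 377 of 13814 other genes (2.73%) had an r of at least 0.95. Khdc3, an oocyte and stem cell gene, was at 1423 ± 67.4 and 2297 ± 126 (n = 3 each, SD). The closest genes of the 8 lists were Ube2j2 (0.964), Srp19 (0.959) and Manf (0.955). Among the other 9 genes r was 0.93 for Pdia6, 0.879 for Atf4, 0.676 for Hspa5 and 0.64 for Hsp90b1. It was near 0 for Pdia4 (-0.024) and Ddit3 (-0.0073) and negative for Xbp1 (-0.605), Kdelr1 (-0.67) and Kdelr2 (-0.742).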

How the data were processed

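Total RNA of 6 samples was read on Affymetrix arrays. The values deposited by the authors are linear intensities for 45101 probe sets. GCRMA, which usually gives log2 values, is the tool in the submitters' processing notes, yet the mean of each array without the lowest and highest 2% is 500, as global scaling in MAS 5.0 gives; which tool made them is not settled. The linear values were log2-transformed without an offset. The test was limma's, version 3.58.1 under R 4.3.3, 2-sided, fitted to all 6 arrays by lmFit and eBayes with 1 prior variance for all probe sets. The 64 control probe sets and 15870 with a mean log2 under 4 were left out, so low values have no background call behind them. The brightest of a gene's probe sets with 1 symbol (34958 had 1, 932 several, 9211 none) stood for the gene. Of the 22 probe sets of the 10 genes, 19 passed the filter.

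The text names all 10 genes; from each list up to 3 called members with the largest change or, under 2 calls, the called one with the 2 brightest; and the genes most like Kdelr3. The 10 genes and the lists were chosen with earlier results of these data known, and the promoter motifs after the values had been seen. The test was tested on simulated data. Alternatives changed the prior, filter, offset, scaling, replicate block, arrays and probe set choice. The number of arrays limits the precision.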

Additional observations from a re-analysis of the deposited data

How the results depend on the processing

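The main test called 376 probe sets, 0 of the 9 genes other than Kdelr3 and 1 of the listed pathway genes. With the level-dependent robust prior these were 3293, 1 (Atf4) and 31. With no filter they were 0, 0 and 0 (5645, 0 and 20 at an unadjusted p under 0.05 in limma), and with a mean log2 of at least 6 they were 2373, 0 and 13. An offset of 16 gave 628, 0 and 2, and median centring 153, 0 and 0. Averaging all probe sets per gene gave 0 of the 9 and 2 pathway genes, Gpt2 and Ube2j1, without Dnajc1. Leaving out 1 array at a time gave 0 to 2844 probe sets, 0 to 1 of the 9 genes and 0 to 28 pathway genes, where the higher ends come from the level-dependent robust prior and limma's constant prior gave at most 1, 0 and 0. Fewer samples enter those fits.

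The Kdelr3 difference lay between 1.11 (offset of 16) and 1.39 over all 20 alternatives. Xbp1 turned to 0.020 on the log2 scale with median centring. Without 1 array, Ddit3 ranged from -0.10 to 0.15 and Pdia4 from -0.20 to 0.25, both changing sign. Kdelr1, Kdelr2, Hspa5, Hsp90b1, Pdia6 and Atf4 kept their sign in all alternatives. Nothing in the labels says whether the replicate numbers pair the samples. Deviations of same-numbered arrays correlated at -0.00612, 0.0123 and 0.0242, and not every array correlated best with its own number. With so few arrays, such values cannot settle whether the samples were paired. With the number as a replicate block, limma called 0 probe sets (5189 at an unadjusted p under 0.05), 0 of the 9 genes and 0 pathway genes. The planned count of genes whose protein ends in a KDEL-type signal was not run, because protein sequences were not used here. Without detection calls, the dimmest values have no measured background.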

Other observations

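With the level-dependent robust prior, 31 of the 203 tested pathway genes were called by limma, 13 higher and 18 lower, beside 6.2% higher and 9.43% lower of all tested genes. The genes named here were chosen after their values had been seen. In the translocon and signal peptidase list 7 of 30 were higher and 3 lower. The channel subunit Sec61b went from 9578 ± 206 to 11386 ± 274 (n = 3 each, SD; log2 difference 0.25, limma adjusted p = 0.00391 with this prior and 0.133 in the main test). Tram2, which assists membrane insertion, went from 452 ± 20.8 to 285 ± 38.8 (-0.67, limma adjusted p = 0.00523 and 0.0724), while a dim second probe set gave 0.27 with overlapping groups. In the list of degradation from the ER 0 of 27 were higher and 4 lower, among them the ubiquitin-conjugating enzyme gene Ube2j1 (1180.3 ± 55.6 to 772 ± 97.0, -0.62, limma adjusted p = 0.00177 and 0.0724), whose second probe set gave -1.16. Sel1l, a scaffold of the same process, gave -0.42, and its 4 dimmer probe sets gave -0.54, -0.37, -0.49 and -0.95.

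Creb3, a membrane-bound transcription factor related to Atf6 in its processing, went from 856 ± 46.5 to 573 ± 46.7 (n = 3 each, SD; log2 difference -0.58, limma adjusted p = 0.0021 with the level-dependent robust prior and 0.0619 in the main test). Of its 3 dimmer probe sets, 2 gave -0.60 and -0.62 and the dimmest 0.39. Pdia3, a disulphide isomerase that works with Calr and Canx, went from 2607 ± 312 to 3686 ± 279 (0.50, limma adjusted p = 0.00308 and 0.106), while a dim probe set gave -0.06. Among the targets of Atf4 or Ddit3, Ddit4, an inhibitor of mTOR signalling, went from 589 ± 66.5 to 952 ± 198 (0.68, limma adjusted p = 0.00814 and 0.127), and Gpt2, an alanine aminotransferase gene, from 824 ± 83.0 to 472 ± 69.5 (-0.81, limma adjusted p = 0.00149 and 0.0716), with -0.66, -0.61 and -0.36 on its 3 dimmer probe sets.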
